A study of Drosophila melanogaster with 20 samples.

Results

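The fat body of adult female flies on a high sugar diet (HSD) was compared with the fat body of flies on normal food (ND) across the whole transcriptome. The comparison took 10 of the 20 libraries of the study, 5 from HSD flies and 5 from ND flies, and the other 10 libraries were of brain from the same diets. All flies were wild type Oregon-R females of Drosophila melanogaster, listed at 5 days of age and 5 days on the diet in every library, ND libraries included, and the labels do not say how many animals a library holds. Poly(A) RNA was sequenced, and each gene was given as RPKM, its reads scaled by gene length and by the reads of the library. The comparison covers 8224 of 13973 genes with a symbol of their own, those averaging 1 RPKM or more in these 10 libraries.

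The fat body of the fly does the work of liver and adipose tissue. It turns dietary sugar into glycogen, the blood sugar trehalose and triglyceride, and it secretes the lipoproteins, transferrin and storage proteins of the haemolymph. In adult females it also makes yolk proteins, which the ovary takes up. Insulin-like peptides, adipokinetic hormone and the sugar-responsive factors Mondo and Sugarbabe set its metabolism, and it sends out signals of its own, among them Dawdle, an Activin-like ligand, and ImpL2, a secreted protein that binds insulin-like peptides.

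The libraries held between 10724205 (HSD 2) and 23417118 (HSD 5) reads on genes in HSD, and between 5601149 (ND 4) and 40438358 (ND 5) in ND. HSD 4, ND 4 and ND 5 stood apart in their low values: they listed 413, 324 and 101 genes at 1 to 3 reads, while each of the other 7 listed between 1120 and 1262 such genes. The 3 yolk protein genes (Yp1 to Yp3) took between 5.86% and 13.7% of reads in HSD libraries and between 9.89% and 25.0% in ND libraries. Principal component 1 carried 37.6% of the variance, and the diets overlapped along it. The fat body label was checked with 15 marker genes: the yolk protein genes, the lipoprotein gene Rfabg (apolpp), Npc2h and the fatty acid synthase gene CG3523 (FASN1) were high in both diets, whereas Fbp1, the receptor of larval serum proteins, and Fbp2 were below a mean RPKM of 1. Of the 13 markers kept, 9 stood lower in HSD on either scale, with medians of -0.48 and -0.71 after rescaling. The labels do not say whether the libraries of a diet come from separate cultures; the p-values then stand for library-to-library spread only, which may be technical.

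No gene passed the test between diets. With limma and Benjamini-Hochberg adjustment over 8224 genes, 0 genes had an adjusted p under 0.05 on the deposited scale (0%), and the smallest adjusted p was 0.159. At an unadjusted p under 0.05, 785 genes (9.55%) differed, of which 639 (7.77%) were higher and 146 (1.78%) were lower in HSD. A log2 fold change past 1 in size was shown by 48 of the higher and 48 of the lower genes. The level of all genes was itself shifted: 6283 genes had the higher mean in HSD and 1941 in ND, with a median log2 fold change of 0.19.

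The shift depended on the scale. RPKM divides by all reads of a library, and a median-ratio size factor, the median over genes of a library's ratio to the 10-library geometric mean, was 0.974, 1.13, 1.26, 1.21 and 0.909 in HSD 1 to 5, against 0.728, 0.775, 1.10, 1.14 and 0.967 in ND 1 to 5. The mean log2 size factor was 0.23 higher in HSD, the ranges of the diets overlapped, and a two-sided exact permutation test over every split of 5 against 5 gave p = 0.175, where the smallest p it allows is 0.00794. ND 1 and ND 2 had the lowest size factors and the highest yolk shares, 25.0% and 21.7%, while ND 3 had a yolk share of 17.9% and a size factor of 1.10. With Yp1, Yp2 and Yp3 left out of the read total, a scale chosen after seeing the data, the difference in log2 size factor was 0.07 and the exact permutation p was 0.563. The part of the yolk reads in the shift was not tested.

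**Figure D1:**
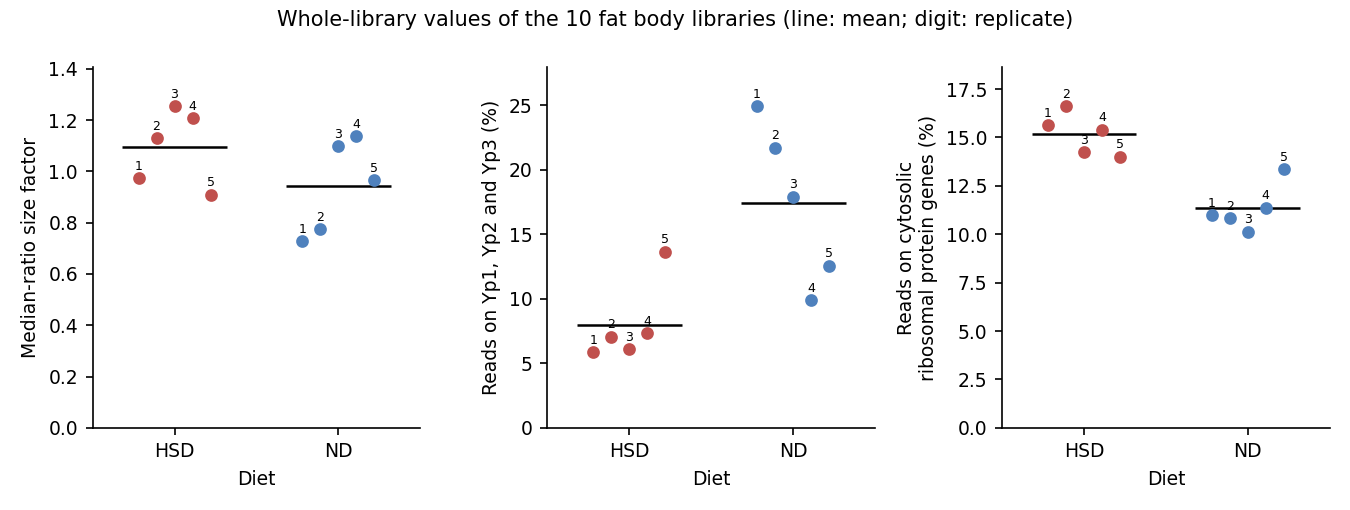
Size factor, percent of reads on the yolk genes Yp1, Yp2 and Yp3, and percent of reads on cytosolic ribosomal protein genes in each fat body library, HSD left and ND right, with the mean as a line and the replicate number above each point. The size factors of the diets overlap (0.909 to 1.26 in HSD, 0.728 to 1.14 in ND), ND 1 and ND 2 have the highest yolk shares, 25.0% and 21.7%, and the ribosomal protein shares of HSD libraries (14.0% to 16.6%) all lie above those of ND libraries (10.1% to 13.4%).

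After each library was divided by its size factor, the median log2 fold change was -0.01, with 3934 genes higher and 4290 lower in HSD. Again 0 genes passed the adjusted threshold (0%), and the smallest adjusted p was 0.9001. limma-voom on the recovered reads also gave 0. An unadjusted p under 0.05 was reached by 341 genes (4.15%), of which 126 (1.53%) were higher and 215 (2.61%) lower in HSD; with the replicate number as a block the count was 583, 225 higher and 358 lower. Of the 639 genes higher on the deposited scale, 513 did not reach the unadjusted threshold after rescaling, against 3 of the 146 lower genes, and 72 genes were lower after rescaling only. On both scales 126 genes stood higher and 143 lower.

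**Figure D2:**
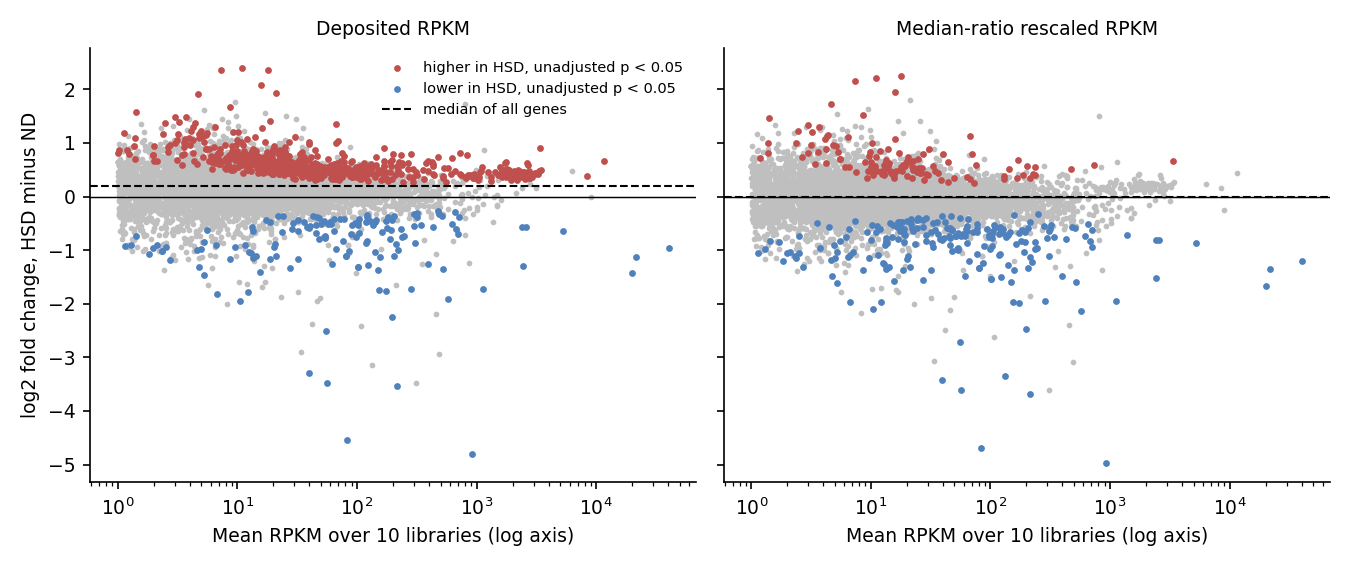
Log2 fold change of HSD minus ND against mean RPKM (log axis) for 8224 genes, on the deposited scale at left and after median-ratio rescaling at right. Coloured points have an unadjusted p under 0.05 (red higher, blue lower in HSD), and the dashed line is the median of all genes, 0.19 at left and -0.01 at right.

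The share of genes with the higher mean in HSD varied with abundance. Of the 117 genes averaging 1000 RPKM or more, 84.6% stood higher in HSD as deposited and 78.6% after rescaling, with medians of 0.39 and 0.16. At an unadjusted p under 0.05 there were 82 higher and 8 lower as deposited, but 1 higher and 9 lower after rescaling. These 117 genes include cytosolic ribosomal protein genes described below, such as RpL23A, so the counts of the bin and of that list are not separate results. Of the 592 genes between 100 and 1000, 64.2% stood higher as deposited but 34.3% after rescaling, and 13 higher and 64 lower genes reached an unadjusted p under 0.05 there after rescaling. Between 20 and 100 the rescaled counts were 32 higher and 76 lower among 2136 genes. Between 5 and 20 the rescaled counts were 59 higher and 47 lower among 3765 genes.

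ImpL2, whose product binds insulin-like peptides outside the cell, stood about 1 log2 unit higher in HSD fat body. It had 132, 108, 90.3, 70.4 and 72.97 RPKM in HSD 1 to 5, against 36.7, 49.3, 53.9, 41.04 and 43.8 RPKM in ND 1 to 5. Every HSD library lay above every ND library on the deposited scale, as it did for 1.64% of all genes; 0.268% lay apart in the other direction and 1.91% in either. After rescaling, where 0.34% lay apart upward, 0.231% downward and 0.571% in either direction, ImpL2 did not. The log2 fold change was 1.03 ± 0.19 (SE) as deposited and 0.80 ± 0.23 after rescaling, with limma adjusted p of 0.159 and 0.951.

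Dawdle (daw), the Activin-like ligand, was measured at 56.3, 46.6, 49.02, 64.03 and 47.1 RPKM in HSD libraries and at 20.03, 13.2, 25.3, 40.5 and 37.8 RPKM in ND libraries. The HSD libraries all lay above the ND libraries as deposited, and ND 4 and ND 5 were the closest to them. Its log2 fold change was 1.02 ± 0.27 as deposited and 0.79 ± 0.22 rescaled (limma adjusted p 0.263 and 0.951).

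The other genes of the insulin pathway gave smaller differences. Of 21 members of the pathway list 20 were kept, 18 of them higher in HSD as deposited with a median log2 fold change of 0.24, and 13 higher after rescaling with a median of 0.02, close to the median of all genes on either scale. An unadjusted p under 0.05 was reached by ImpL2, S6k and chico as deposited and by ImpL2 alone after rescaling. Among all genes 7.77% were higher at that threshold as deposited and 1.53% after rescaling. S6k, the growth kinase downstream of TOR, had 71.4, 61.9, 55.9, 49.1 and 39.5 RPKM in HSD and 43.5, 39.6, 43.5, 29.95 and 39.05 RPKM in ND, a log2 fold change of 0.48 ± 0.18 that was 0.25 ± 0.23 after rescaling.

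Ilp6, the insulin-like peptide made in the fat body, had 68.1, 36.3, 46.5, 29.3 and 50.3 RPKM in HSD and 17.4, 18.6, 25.1, 46.6 and 48.97 RPKM in ND. The diets overlapped: ND 4 and ND 5 lay above HSD 2, HSD 3 and HSD 4, and the log2 fold change of 0.62 ± 0.33 did not pass (limma adjusted p 0.554). The receptor gene InR (log2 fold change 0.28 ± 0.36), foxo, the transcription factor that insulin holds out of the nucleus (0.17 ± 0.16, turning to -0.06 after rescaling), and Thor, the 4E-BP repressor of translation and a known FOXO target (0.24 ± 0.20), differed by little more than 1 standard error or less.

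Sugar sensing and adipokinetic hormone genes lay on both sides. In that list 17 of 19 members were kept, and 6 higher and 2 lower members had an unadjusted p under 0.05 as deposited. Of these, daw (higher) and tobi and bmm (lower) also did after rescaling. Among all genes 7.77% were higher and 1.78% lower as deposited, and 1.53% and 2.61% rescaled. The zinc finger factor sug (Sugarbabe), known to be induced by dietary sugar, had 133, 117, 139, 119 and 173 RPKM in HSD and 103, 50.2, 101, 74.8 and 124 RPKM in ND, and its log2 fold change was 0.63 ± 0.23 as deposited and 0.40 ± 0.26 rescaled. The receptor gene of adipokinetic hormone, GRHR (AkhR), had 110.2, 103, 105, 109 and 125 RPKM in HSD and 50.4, 46.8, 62.2, 95.8 and 109.9 RPKM in ND. ND 1 to 3 lay well below the HSD libraries, ND 4 just below and ND 5 among them, and its log2 fold change was 0.67 ± 0.23 as deposited and 0.44 ± 0.21 rescaled.

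The gene tobi, an alpha-glucosidase known as a target of brain insulin and of adipokinetic hormone, stood lower in HSD. It had 73.4, 91.7, 108, 101 and 332 RPKM in HSD and 659, 593, 237, 353 and 296 RPKM in ND. HSD 5 alone lay inside the ND range. The log2 fold change was -1.72 ± 0.40 as deposited and -1.95 ± 0.50 rescaled, with limma adjusted p of 0.241 and 0.951.

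Among genes of growth and RNA handling, yps, a Y-box RNA-binding protein, kept the diets apart on both scales. It had 227, 255, 221, 240.0 and 161 RPKM in HSD, against 85.7, 96.8, 131, 132 and 141 RPKM in ND. HSD 5 was the lowest HSD library and still above ND 5, the highest ND library. The log2 fold change was 0.91 ± 0.18 as deposited and 0.68 ± 0.13 rescaled (limma adjusted p 0.159 and 0.9).

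Dref, a transcription factor of DNA replication and growth genes, was tight within each diet. Its values were 57.5, 59.9, 58.4, 61.7 and 57.5 RPKM in HSD and 36.02, 38.3, 41.3, 41.6 and 39.1 RPKM in ND. The ranges of the diets lay apart as deposited, with a log2 fold change of 0.58 ± 0.12 as deposited and 0.35 ± 0.15 after rescaling.

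**Figure D3:**
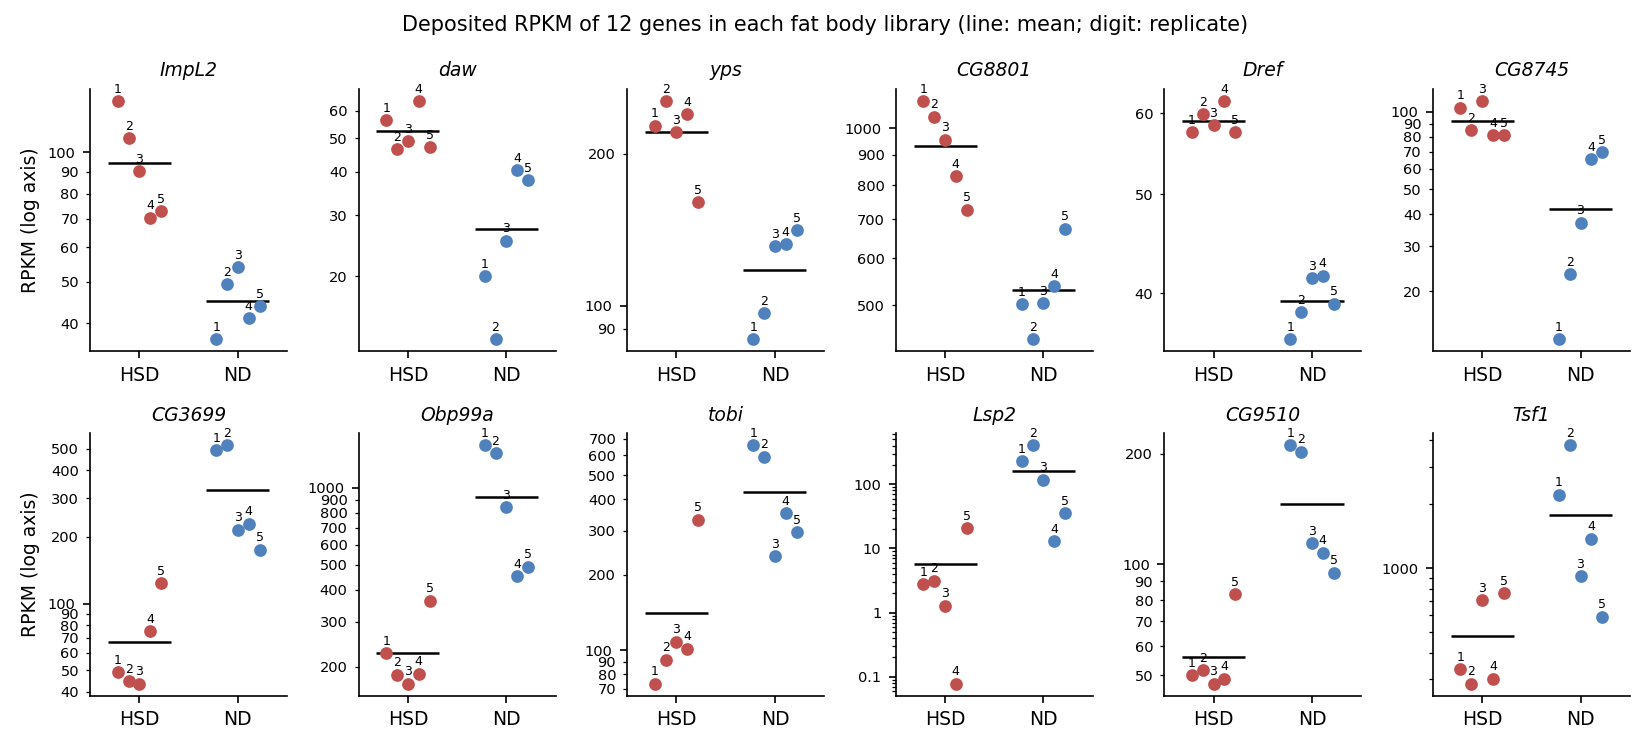
Deposited RPKM (log axis, a separate one per gene) of 12 genes in each library, HSD left and ND right, with the mean as a line and the replicate number above each point. The upper row stands higher in HSD (ImpL2 70.4 to 132 RPKM in HSD, 36.7 to 53.9 RPKM in ND) and the lower row lower, where HSD 5 lies nearest to ND for tobi, Obp99a, Lsp2 and CG9510.

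Ribosome biogenesis genes stood higher as a group. All 30 members found were kept and all 30 had the higher mean in HSD as deposited (29 of 30 rescaled), with a median log2 fold change of 0.58, and 0.35 after rescaling, against 0.19 and -0.01 for all genes. At an unadjusted p under 0.05 there were 10 higher and 0 lower as deposited, against 7.77% and 1.78% of all genes. Rescaled there were 4 higher and 0 lower, against 1.53% and 2.61% of all genes. In libraries 1 to 3 the rescaled median was 0.57 and in libraries 4 and 5 it was 0.06, where 17 of 30 stood higher.

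CG8801 (Non1), a nucleolar GTPase needed for the large ribosomal subunit, led the group with 1112, 1045, 955, 829 and 727 RPKM in HSD and 502, 437, 504.3, 538 and 674 RPKM in ND. The diets did not overlap as deposited, and ND 5 came closest to HSD 5. Its log2 fold change was 0.81 ± 0.15 as deposited and 0.58 ± 0.19 rescaled, with limma adjusted p of 0.159 and 0.999. CG4364, the fly pescadillo homologue, followed with 279, 299, 255, 251 and 195 RPKM in HSD and 125, 116, 146, 155 and 199 RPKM in ND, a log2 fold change of 0.79 ± 0.17 as deposited and 0.57 ± 0.16 rescaled, and here ND 5 lay above HSD 5.

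Cytosolic ribosomal protein genes made up 15.6%, 16.6%, 14.2%, 15.4% and 14.0% of reads in HSD 1 to 5, against 10.97%, 10.8%, 10.1%, 11.4% and 13.4% in ND 1 to 5. All HSD libraries lay above all ND libraries in this share. Of 81 genes kept, 79 stood higher on either scale, with a median log2 fold change of 0.42 as deposited and 0.19 rescaled. As deposited 71 were higher at an unadjusted p under 0.05, against 7.77% of all genes, and 33 did not overlap between diets, against 1.64%. After rescaling both counts were 0, against 1.53% and 0.34% of all genes. The rescaled median was 0.16 in libraries 1 to 3 and 0.25 in libraries 4 and 5. RpL23A, a large subunit protein, had 4235, 4555, 3812, 3891 and 3742 RPKM in HSD and 2824, 2827, 2657, 2840.4 and 3137 RPKM in ND, with a log2 fold change of 0.50 ± 0.10 that was 0.27 ± 0.21 after rescaling.

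Other parts of the translation and protein turnover machinery had the same sign with smaller medians. Translation factors gave 29 of 31 higher as deposited (median 0.38) and 26 rescaled (0.15). Of all 8224 genes, 6283 were higher as deposited and 3934 rescaled. At an unadjusted p under 0.05, 16 were higher and 0 lower as deposited, against 7.77% and 1.78% of all genes. Rescaled, 2 were higher and 0 lower, against 1.53% and 2.61% of all genes. The proteasome gave 26 of 26 higher as deposited (0.35) and 25 rescaled (0.12). Aminoacyl-tRNA synthetases gave 19 of 21 (0.33) and 17 (0.10), and mitochondrial ribosomal proteins 66 of 72 (0.31) and 49 (0.09). In this order, 9, 2 and 11 were higher at an unadjusted p under 0.05 as deposited, and 0, 1 and 2 rescaled. Named members were eIF-3p40 (log2 fold change 0.57 ± 0.13, rescaled 0.35 ± 0.18), Ef1gamma (0.39 ± 0.10, rescaled 0.16 ± 0.20), Prosbeta1 (0.45 ± 0.16, rescaled 0.22 ± 0.14), Aats-val (0.65 ± 0.23, rescaled 0.43 ± 0.19), mRpS14 (0.76 ± 0.23, rescaled 0.54 ± 0.22) and mRpL45 (0.53 ± 0.17, rescaled 0.31 ± 0.16). In libraries 4 and 5 after rescaling the synthetases had a median of -0.09 and the mitochondrial ribosomal proteins -0.03. Odc1, ornithine decarboxylase of polyamine synthesis, named after its values were seen, had 389, 297, 301, 276 and 223 RPKM in HSD and 174, 147, 153, 153 and 241 RPKM in ND, a log2 fold change of 0.77 ± 0.17 and 0.55 ± 0.22 rescaled.

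**Figure D4:**
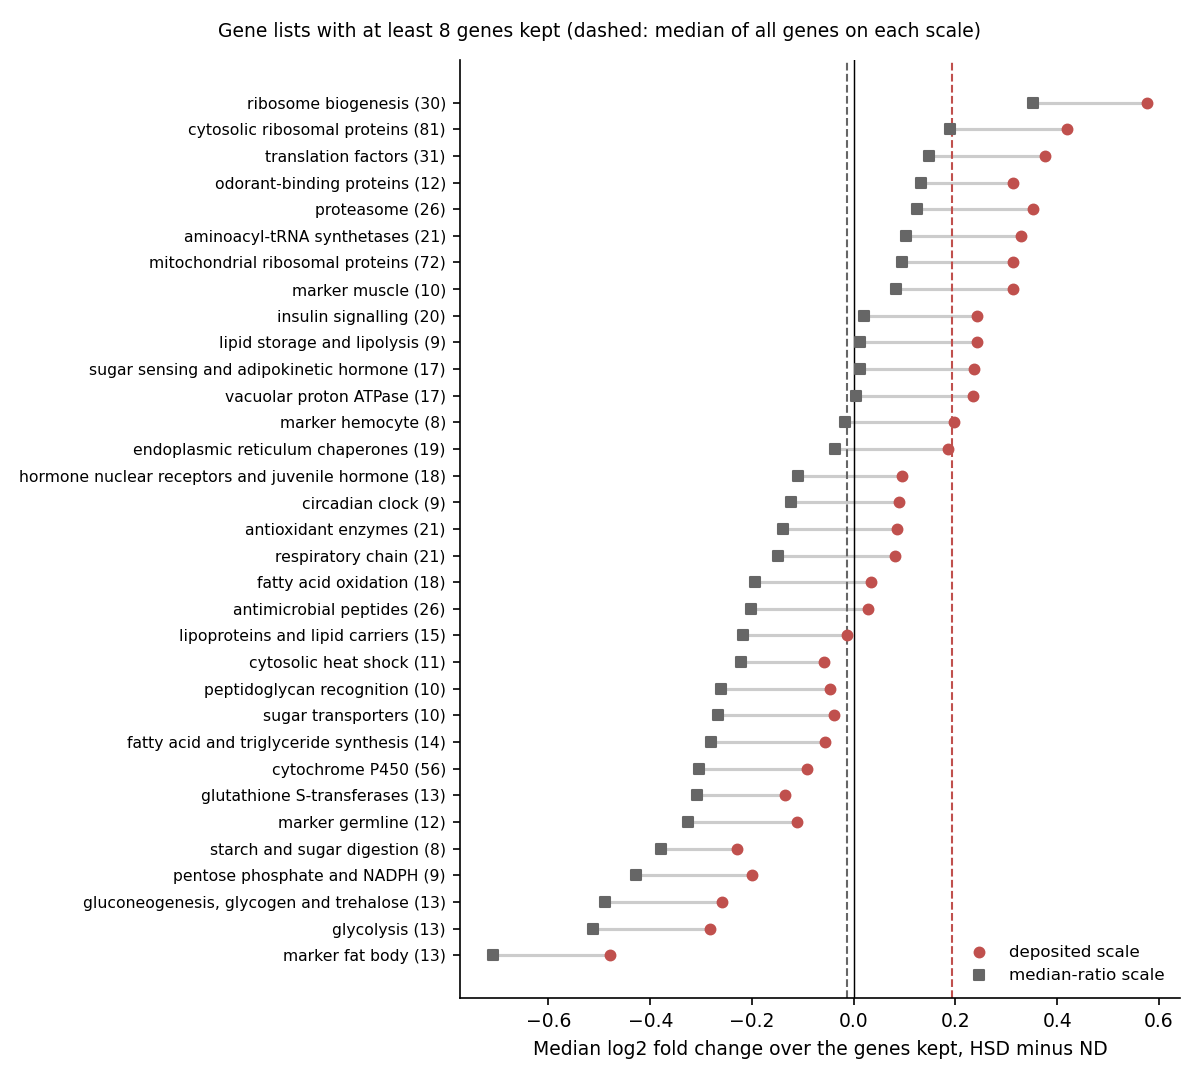
Median log2 fold change of HSD minus ND for gene lists with at least 8 genes kept (number in brackets), on the deposited scale (circles) and after median-ratio rescaling (squares); dashed lines are the medians of all 8224 genes, 0.19 and -0.01. Ribosome biogenesis has the highest medians (0.58 and 0.35), and glycolysis (-0.28 and -0.51) stands near the low end, next to the fat body markers. The eggshell markers are off this scale and are not drawn.

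Several secreted and storage proteins of the fat body stood lower in HSD. The yolk protein gene Yp1 had 20865, 23840.3, 22408, 24663 and 44812 RPKM in HSD, against 78411, 64892, 52039, 32274 and 41088 RPKM in ND. HSD 1 to 4 lay below every ND library and HSD 5 lay above ND 4 and ND 5. The log2 fold change was -0.97 ± 0.26 as deposited and -1.20 ± 0.44 rescaled, and it was -1.43 ± 0.36 and -1.66 ± 0.50 for Yp2 and -1.12 ± 0.28 and -1.35 ± 0.43 for Yp3. Yolk proteins are also made by ovarian follicle cells, and in bulk tissue fewer cells of a type and less RNA per cell cannot be told apart. The fat body marker list holds the same yolk genes, so it is not a separate result. Of its 13 members kept, 6 were lower at an unadjusted p under 0.05 as deposited, Yp1, Yp2, Yp3, Lsp2, Obp99a and Tsf1, and 2 were higher, Npc2h and GRHR. After rescaling 7 were lower, Rfabg besides those 6, and 0 were higher. Among all genes 1.78% were lower and 7.77% higher as deposited, and 2.61% and 1.53% after rescaling. The part of the fat body markers in the values of the storage and metabolic genes was not tested. In libraries 1 to 3 alone the rescaled value of Yp1 was -1.91, and in libraries 4 and 5 it was -0.13.

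Lsp2, a larval storage protein of the hexamerin family that is also made in the adult female fat body, was low in nearly all HSD libraries. It had 2.80, 3.16, 1.28, 0.078 and 20.9 RPKM in HSD and 230.3, 406, 118, 13.1 and 35.9 RPKM in ND. Only HSD 5 reached the ND range, above ND 4, and the log2 fold change was -4.54 ± 0.94 as deposited and -4.69 ± 1.04 rescaled (limma adjusted p 0.182 and 0.9). Lsp1beta, another storage protein gene, had a log2 fold change of -1.94 ± 0.58, and the other 4 larval serum protein genes were below the expression filter.

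Tsf1, the iron carrier transferrin of the haemolymph, had 336, 286, 708, 303 and 764 RPKM in HSD, against 2221, 3794, 916, 1377 and 593 RPKM in ND. HSD 3 and HSD 5 overlapped with ND 5. Its log2 fold change was -1.73 ± 0.47 as deposited and -1.96 ± 0.56 rescaled, with limma adjusted p of 0.263 and 0.951. Obp99a, of the odorant-binding protein family and abundant in this tissue, had 226, 186, 172, 188 and 363 RPKM in HSD and 1470.2, 1370.0, 839, 451 and 493 RPKM in ND, with no overlap as deposited and a log2 fold change of -1.91 ± 0.34 (rescaled -2.14 ± 0.47). The female-enriched satiety peptide gene fit had 53.4, 87.3, 22.5, 98.6 and 86.1 RPKM in HSD and 294, 574, 354, 98.2 and 73.8 RPKM in ND. Here HSD 2, HSD 4 and HSD 5 lay above ND 5, and the log2 fold change was -1.77 ± 0.57 over all libraries.

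Of the 8224 genes, 9 stood lower in HSD with the diets apart on both scales. On a single scale, 0.268% of all genes lay apart downward as deposited and 0.231% after rescaling. CG3699 had the smallest p of the 8224 genes as deposited: 49.1, 44.7, 43.5, 75.2 and 123.4 RPKM in HSD, against 495, 519.7, 216, 230.1 and 175 RPKM in ND. Every HSD library was below every ND library, with a log2 fold change of -2.24 ± 0.37 as deposited and -2.47 ± 0.48 rescaled (limma adjusted p 0.159 and 0.9). CG1979 had 7.66, 2.70, 2.22, 5.48 and 7.73 RPKM in HSD and 28.3, 22.04, 14.6, 18.8 and 12.01 RPKM in ND and a log2 fold change of -1.77 ± 0.35 (-1.96 ± 0.41 rescaled).

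A pair of metabolic enzymes, CG9510 and CG6385, was among the 9. CG9510 (Argl, argininosuccinate lyase), which has the same values as CG9515 in every library so that their reads cannot be told apart, had 50.1, 51.5, 47.4, 48.9 and 82.9 RPKM in HSD and 211, 202, 114, 108 and 94.9 RPKM in ND. Its log2 fold change was -1.31 ± 0.25 as deposited and -1.54 ± 0.37 rescaled. CG6385 (Sardh, sarcosine dehydrogenase) had 5.71, 4.94, 5.42, 7.73 and 7.27 RPKM in HSD and 15.4, 17.02, 11.7, 11.02 and 9.40 RPKM in ND, again with the diets apart, and a log2 fold change of -0.93 ± 0.23 (-1.14 ± 0.28 rescaled). The folate enzyme gene pug, not among the 9, was without overlap as deposited only (-0.88 ± 0.24, rescaled -1.11 ± 0.36), and Plc21C, a phospholipase C and one of the 9, gave a smaller difference with 16.03, 16.3, 15.3, 13.9 and 16.3 RPKM in HSD and 22.9, 22.6, 24.4, 22.1 and 18.3 RPKM in ND (-0.47 ± 0.16, rescaled -0.69 ± 0.19). CG6385, pug and Plc21C are named here after their values were seen.

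Glycolysis stood lower relative to other genes. All 13 members were kept, 2 of them higher as deposited and 1 after rescaling, with medians of -0.28 and -0.51 against 0.19 and -0.01 for all genes and -0.48 and -0.71 for the fat body markers. At an unadjusted p under 0.05 there were 0 higher and 4 lower as deposited, where 1.78% of all genes were lower. Rescaled there were 0 higher and 6 lower, where 2.61% of all genes were lower. In libraries 1 to 3 the rescaled median was -0.77, and in libraries 4 and 5 it was -0.05, where 6 of 13 stood higher.

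PyK, pyruvate kinase at the last step of the pathway, had 434, 383, 415, 405 and 503 RPKM in HSD and 536, 647, 544, 488 and 484 RPKM in ND. HSD 5 lay among the ND libraries and the other HSD libraries below all of them, and the log2 fold change was -0.33 ± 0.12 as deposited and -0.56 ± 0.23 rescaled (limma adjusted p 0.427 and 0.999). Pgi, at the branch to the pentose phosphate pathway, had 254, 180.1, 209, 202 and 396 RPKM in HSD and 379, 389, 287, 319.9 and 377 RPKM in ND (-0.55 ± 0.20, rescaled -0.78 ± 0.31). Values in the same direction came from Eno (-0.31 ± 0.13, rescaled -0.54 ± 0.20), Gapdh2 (-0.28 ± 0.13, rescaled -0.51 ± 0.19) and Tpi (-0.32 ± 0.15, rescaled -0.55 ± 0.24).

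The neighbouring sugar pathways had the same sign. In the pentose phosphate and NADPH list 7 of 9 genes were lower as deposited and 9 of 9 rescaled (medians -0.20 and -0.43). At an unadjusted p under 0.05, 3 and 2 of them were lower, against 1.78% and 2.61% of all genes. Tal (transaldolase) had 554, 444, 474, 434 and 821 RPKM in HSD and 881, 965, 733, 774 and 703 RPKM in ND, with HSD 5 inside the ND range and a log2 fold change of -0.60 ± 0.18 (-0.83 ± 0.29 rescaled). Men, the malic enzyme that yields NADPH, had 456, 564, 507, 391 and 709.6 RPKM in HSD and 1255, 1097, 771, 624 and 630.1 RPKM in ND and a log2 fold change of -0.70 ± 0.22 (-0.93 ± 0.34 rescaled). In the gluconeogenesis, glycogen and trehalose list 11 of 13 were lower as deposited and 13 of 13 rescaled (medians -0.26 and -0.49), but UGP, which makes the UDP-glucose used for glycogen and trehalose, was the only member at an unadjusted p under 0.05 (-0.51 ± 0.19, rescaled -0.74 ± 0.28).

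Pepck, a gluconeogenic enzyme, varied widely: 272, 436, 651, 149.6 and 851 RPKM in HSD and 1706, 715, 540.2, 550.4 and 472 RPKM in ND. ND 1 was far above the other ND libraries, and the log2 fold change of -0.82 ± 0.46 did not pass (limma adjusted p 0.582). Of 10 sugar transporter genes kept, CG8249 and CG6484 were lower at an unadjusted p under 0.05 on both scales and 0 were higher. Among all genes 1.78% were lower as deposited and 2.61% rescaled. CG8249 had 7.90, 7.36, 6.25, 6.12 and 12.8 RPKM in HSD and 22.4, 24.7, 13.3, 15.8 and 12.9 RPKM in ND, where HSD 5 came close to ND 5 without reaching it, and a log2 fold change of -1.05 ± 0.26 (-1.26 ± 0.34 rescaled), and CG6484 had -0.75 ± 0.22 (-0.98 ± 0.33 rescaled). Sodh-1, sorbitol dehydrogenase of polyol metabolism, named after its values were seen, had 198, 152, 166, 210.2 and 445 RPKM in HSD and 758, 825, 328, 519 and 338 RPKM in ND (-1.25 ± 0.33, rescaled -1.48 ± 0.45).

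Fat synthesis genes were split between directions as deposited and mostly lower after rescaling. Of 14 genes of fatty acid and triglyceride synthesis kept, 7 were higher and 7 lower as deposited, and 3 higher and 11 lower after rescaling, with medians of -0.06 and -0.28. At an unadjusted p under 0.05, 1 was higher and 4 lower as deposited, against 7.77% and 1.78% of all genes. Rescaled, 0 were higher and 4 lower, against 1.53% and 2.61%. The main enzymes overlapped between diets: CG3523 (FASN1, fatty acid synthase) had 1084, 849.8, 1044, 716 and 1068 RPKM in HSD and 1121, 1169, 910.2, 1051 and 1161 RPKM in ND (-0.20 ± 0.14, rescaled -0.43 ± 0.25), and CG11198 (ACC, acetyl-CoA carboxylase) had a log2 fold change of -0.29 ± 0.15 (-0.52 ± 0.26 rescaled). AcCoAS, acetyl-CoA synthetase, had 342, 362, 354, 275 and 364 RPKM in HSD and 706, 703, 509, 361 and 343 RPKM in ND. Here ND 1 to 3 were the high libraries and ND 4 and ND 5 lay within the HSD range; the log2 fold change was -0.56 ± 0.21 (-0.79 ± 0.32 rescaled).

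Smaller differences at an unadjusted p under 0.05 on both scales came from ATPCL, the ATP citrate lyase (-0.36 ± 0.16, rescaled -0.59 ± 0.26), CG8709, the lipin phosphatidate phosphatase (-0.42 ± 0.16, rescaled -0.65 ± 0.25), and CG5508, the acyltransferase mino (-0.34 ± 0.16, rescaled -0.57 ± 0.26). v(2)k05816 (FASN2), a fatty acid synthase known from oenocytes, was the only member of this list higher at that threshold, as deposited, with 365, 214, 203, 119 and 133 RPKM in HSD and 131, 126, 119.7, 113 and 152 RPKM in ND (0.58 ± 0.26, rescaled 0.35 ± 0.31).

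On the side of lipid release, bmm (brummer), the fly relative of adipose triglyceride lipase, had 76.3, 74.5, 71.98, 74.3 and 103 RPKM in HSD and 104, 149.8, 102, 124 and 90.8 RPKM in ND. HSD 1 to 4 lay below every ND library and HSD 5 among them, with a log2 fold change of -0.50 ± 0.16 (-0.72 ± 0.24 rescaled). The storage and lipolysis list, with 9 genes kept, was split, 5 of them higher on either scale; CG17292 was higher as deposited (0.41 ± 0.16, rescaled 0.18 ± 0.20). In fatty acid oxidation 11 of 18 stood higher as deposited and 3 of 18 rescaled, and CG3902 was lower (-0.77 ± 0.31, rescaled -0.995 ± 0.36).

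Lipid carriers differed from each other. Npc2h and Npc2g, sterol-binding proteins of the NPC2 family, stood higher as deposited: Npc2h had 575, 468, 530.1, 492 and 556 RPKM in HSD, against 307, 343, 373, 313 and 388 RPKM in ND, without overlap, and a log2 fold change of 0.61 ± 0.11 (0.38 ± 0.19 rescaled, limma adjusted p 0.159 and 0.999). Npc2g had 0.55 ± 0.14 (0.32 ± 0.23 rescaled). The lipophorin gene Rfabg (apolpp) had 1512, 796, 832, 1062 and 1560.0 RPKM in HSD and 1208, 1333, 1164, 2361 and 1973 RPKM in ND (-0.48 ± 0.25, rescaled -0.71 ± 0.31), and the lipophorin receptor gene LpR1 had 0.50 ± 0.21 (0.28 ± 0.23 rescaled).

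Detoxification genes leaned downward by number. Of 56 cytochrome P450 genes kept, 20 stood higher as deposited and 16 rescaled (medians -0.09 and -0.30). The summed RPKM of the cytochrome P450 list stood higher in HSD, with a median of 16026 against 11486 in ND as deposited. At an unadjusted p under 0.05, 3 were higher and 9 lower as deposited, against 7.77% and 1.78% of all genes. Rescaled, 0 were higher and 10 lower, against 1.53% and 2.61% of all genes. Cyp309a1 had 13.01, 8.67, 8.46, 10.1 and 15.7 RPKM in HSD and 31.6, 31.5, 25.3, 26.01 and 16.5 RPKM in ND, with the diets apart as deposited and a log2 fold change of -1.16 ± 0.24 (-1.37 ± 0.31 rescaled). Cyp28d1 had -0.75 ± 0.20 (-0.98 ± 0.31 rescaled) and the glutathione transferase GstE3 -0.61 ± 0.24 (-0.83 ± 0.30 rescaled). The glutathione transferases held 0 higher and 3 lower of 13 at that threshold as deposited and 0 and 4 rescaled.

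Immune genes varied widely within each diet. Of 26 antimicrobial peptide genes kept, 0 reached an unadjusted p under 0.05 on either scale, and Def (defensin) shows the spread with 2.67, 1.17, 0.606, 0.45 and 107 RPKM in HSD and 5.63, 32.3, 4.18, 163 and 3.97 RPKM in ND. Of 10 peptidoglycan recognition genes kept, 4 stood higher and 6 lower as deposited (median -0.05, rescaled -0.26), with 1 higher and 1 lower at that threshold, and 0 and 1 rescaled; the lower one was PGRP-SD (-0.86 ± 0.30, rescaled -1.09 ± 0.39). Of 4 Turandot stress peptide genes kept, 1 stood higher and 3 lower, and TotM was lower at that threshold (-1.10 ± 0.36, rescaled -1.33 ± 0.39). Of 11 cytosolic heat shock genes kept, 5 stood higher and 6 lower on either scale (median -0.06, rescaled -0.22), with 2 higher and 0 lower at that threshold as deposited and 0 and 0 rescaled. These 2 were Hsc70-4 and Hsp83. At that threshold 7.77% of all genes were higher and 1.78% lower as deposited, and 1.53% and 2.61% rescaled. The chaperone gene Hsc70-4 had 2664, 2404, 2179.7, 1838 and 1655 RPKM in HSD and 1117, 1147, 1487, 1365 and 1711 RPKM in ND, where ND 5 lay above HSD 5 (0.65 ± 0.16, rescaled 0.42 ± 0.19), and Hsp83, the fly HSP90, had 0.78 ± 0.35 (0.55 ± 0.30 rescaled).

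Markers of other cell types were not constant between libraries. The 14 eggshell and follicle cell markers summed to 26.4, 1020, 81.1, 97.6 and 1546 RPKM in HSD 1 to 5, against 7532, 7002, 116, 12496 and 173 RPKM in ND 1 to 5. The ND libraries thus fell into 3 high and 2 low ones, and the low ones overlapped with HSD. Of 13 such genes kept, 12 stood lower in HSD with a median log2 fold change of -2.90 (-3.07 rescaled). At an unadjusted p under 0.05, 4 were lower as deposited and 5 rescaled, against 1.78% and 2.61% of all genes. The chorion gene Cp15 had 3.28, 14.3, 10.4, 2.27 and 59.1 RPKM in HSD and 21.997, 48.98, 50.2, 295 and 49.7 RPKM in ND. The log2 fold changes of Cp18, Cp19 and the vitelline membrane gene Vm32E were -3.54 ± 1.58, -4.81 ± 1.91 and -3.48 ± 1.46. Their part in the yolk protein values, whose genes follicle cells also express, was not tested. Beside the eggshell sums, the yolk shares were 5.86%, 7.08%, 6.11%, 7.36% and 13.7% in HSD 1 to 5. In ND 1 to 5 they were 25.0%, 21.7%, 17.9%, 9.89% and 12.6%.

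**Figure D5:**
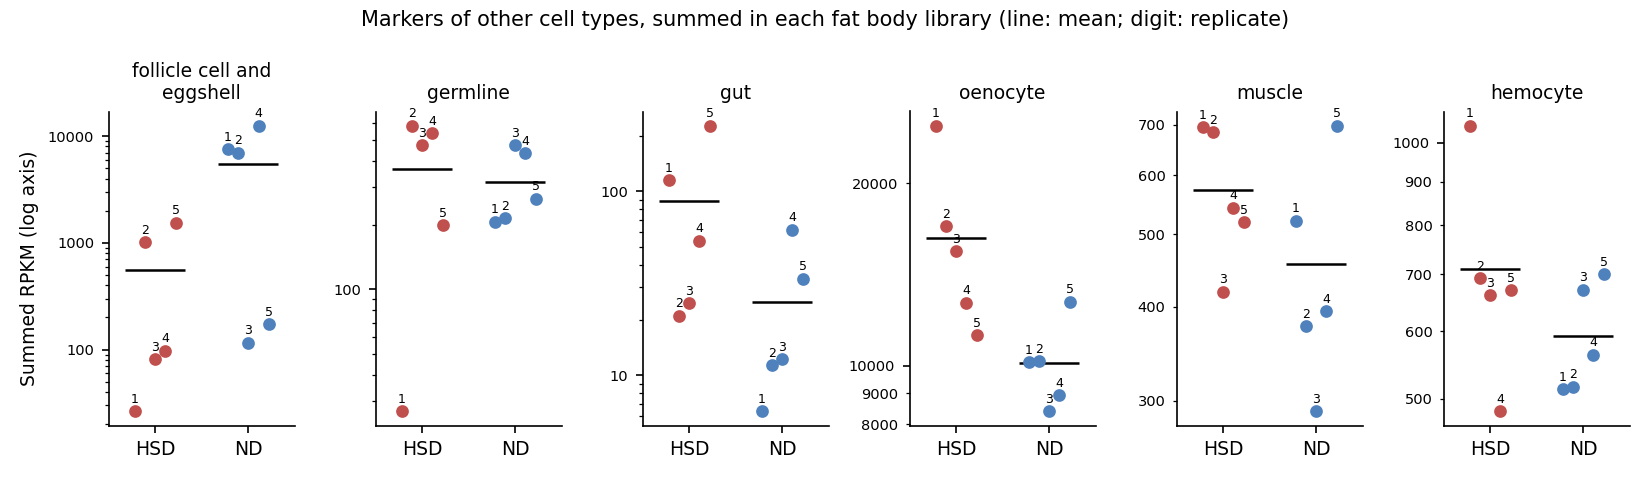
Summed RPKM (log axis, a separate one per panel) of marker genes of 6 other cell types in each library, HSD left and ND right, with the mean as a line and the replicate number above each point. Eggshell markers range over 26.4 to 1546 RPKM in HSD and 116 to 12496 RPKM in ND, and gut markers over 21.1 to 228 RPKM in HSD and 6.35 to 61.9 RPKM in ND.

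Germline markers (12 of 12 kept) summed to between 26.9 and 582 RPKM in HSD and between 207 and 473 RPKM in ND, with HSD 1 the lowest of all. Of 7 gut markers 4 were kept and 3 of these stood higher in HSD on either scale; the list summed to 114.9, 21.1, 24.6, 54.0 and 228 RPKM in HSD and to 6.35, 11.3, 12.2, 61.9 and 33.5 RPKM in ND. They are led by digestive proteases, betaTry with 31.5, 8.18, 6.43, 30.1 and 51.7 RPKM in HSD and 0.25, 2.20, 2.51, 11.9 and 13.5 RPKM in ND (2.09 ± 0.73, rescaled 1.95 ± 0.75) and Jon65Aiii with 46.4, 3.01, 6.98, 4.25 and 107 RPKM in HSD and 0.576, 0.901, 2.42, 4.12 and 3.46 RPKM in ND (2.37 ± 0.84, rescaled 2.24 ± 0.88). Both belong to families of near-identical proteases between which reads may be split.

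Oenocytes, hydrocarbon-producing cells next to the abdominal fat body, had 5 of 5 markers higher in HSD on either scale (medians 0.38 and 0.27). At an unadjusted p under 0.05, 3 were higher as deposited and 0 rescaled, against 7.77% and 1.53% of all genes. Cyp4g1, which makes cuticular hydrocarbons, had 22479.7, 15345, 13962, 10943 and 9792 RPKM in HSD and 8889, 8869, 7357, 7795 and 11114 RPKM in ND (0.67 ± 0.21, rescaled 0.44 ± 0.31), and the elongase eloF had 0.64 ± 0.25 (0.41 ± 0.29 rescaled). Muscle markers, 10 of 14 kept and 10 higher as deposited but 8 rescaled, summed to between 419 and 695 RPKM in HSD and between 290.2 and 698 RPKM in ND. The 9 neuronal markers summed to at most 9.82 RPKM and the 7 male ones to at most 0.105 RPKM in any library. What part these cells have in the diet differences was not tested.

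The remaining genes with the largest values upward were mostly of low abundance. CG8745 had 104, 84.7, 110.3, 80.96 and 81.04 RPKM in HSD and 12.999, 23.4, 37.1, 65.6 and 69.8 RPKM in ND. The diets did not overlap as deposited, although ND 4 and ND 5 came near, but they did after rescaling. Its log2 fold change was 1.36 ± 0.39 (1.13 ± 0.32 rescaled). The log2 fold changes of CG7203, CG9444, CG4000, CG6310, CG14174, CG6724 and CG14022 were 1.68, 1.30, 1.29, 1.202, 1.118, 1.10 and 1.10 as deposited. Of the lower genes, CG10621 had -1.74 ± 0.46 (-1.96 ± 0.56 rescaled), with HSD 4 and HSD 5 above ND 4. The small nucleolar RNA gene snoRNA:Me28S-U2134a, which guides methylation of ribosomal RNA, had 9.18, 9.95, 8.05, 32.3 and 6.26 RPKM in HSD and 2.00, 1.73, 2.54, 0 and 1.32 RPKM in ND, without overlap on either scale (2.37 ± 0.46, rescaled 2.16 ± 0.44). For snoRNA:Me28S-A2113 the log2 fold changes were 2.41 ± 0.70 and 2.21 ± 0.70, with HSD 4 at 71.4 RPKM and ND 4 at 0. Such genes are short, so a given RPKM stands for fewer reads than on a 1 kb gene, and the libraries are of poly(A) RNA. They lie within other genes, so their reads may be shared. HSD 4 and ND 4 are 2 of the 3 libraries with few low values.

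The diet difference was uneven over the replicate numbers. With libraries 1 to 3 of each diet alone, 1500 genes had an unadjusted p under 0.05 and 16 passed the adjusted threshold on the deposited scale. Among the 16 were Yp3, Lsp2, Obp99a, CG8801 and CG3699. With libraries 4 and 5 alone the counts were 99 and 0. After rescaling they were 575 and 0 with libraries 1 to 3, and 84 and 0 with libraries 4 and 5. The second set has fewer libraries, so the counts of the sets are not a like comparison. Across 8224 genes the rescaled log2 fold changes of these separate sets of libraries had a Pearson r of 0.07, as a description across genes, which are not independent, and 52.7% had the same sign. HSD 5 weighed on the adjusted count as deposited: without it 19 genes passed, tobi, Tal, yps and CG9510 among them, but 0 passed after rescaling. Of these genes, 7 were common to the 16 and the 19. The unadjusted count of 785 was 519 without HSD 2, 472 without ND 1 and 479 without ND 2, and that of 341 was 218, 208 and 195. Without HSD 4, ND 4 and ND 5, the libraries with few low values, the counts were 1263 as deposited and 559 rescaled.

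The same diets were also compared in brain, and the difference between tissues was tested as a diet by tissue interaction over 9280 genes in all 20 libraries. With limma, 0 genes passed the adjusted threshold (0%, smallest adjusted p 0.772), and 598 genes (6.44%) had an unadjusted p under 0.05, 535 (5.77%) with the higher and 63 (0.679%) with the lower diet difference in fat body. After rescaling 0 genes passed (0%) and the unadjusted count was 227 (2.45%), 120 (1.29%) higher and 107 (1.15%) lower. The smallest p came from Dref, with a log2 fold change of 0.58 in fat body and 0.03 in brain, CG14868, yps (0.91 and 0.09), snoRNA:Me28S-U2134a (2.37 and -0.06) and CG8801 (0.81 and -0.04). Some genes that stood lower in the fat body had the same sign in brain: Lsp2 (-4.54 in fat body, -1.98 in brain), tobi (-1.72 and -0.67), Yp1 (-0.97 and -0.53) and Obp99a (-1.91 and -0.56). Their unadjusted limma p in brain was 0.136, 0.429, 0.528 and 0.410 in this order. ImpL2 (1.03 and -0.13), daw (1.02 and 0.13), PyK (-0.33 and 0.03) and Tsf1 (-1.73 and -0.17) had brain values near 0. As no gene passed the interaction test, these are values side by side.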

How the data were processed

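The deposited tables give RPKM per gene for each library. Per the labels' protocols, the libraries are of poly(A) RNA, and per the series' design text only reads with a unique mapping position entered; per the submitters' processing notes, the aligner was TopHat and the build dm3, without versions. Each table held 15080 rows; 188 symbols in several rows (1107 rows, at most 0.189% of reads) were dropped. Of 104295 fat body values above 0, 98.82% came out as whole reads within 0.01 read, which gave the depth; 3 reads on a 1 kb gene correspond to 0.0742 to 0.536 RPKM, a floor that covers counting error only. Columns of other samples: 0. The reference at hand is of a later assembly, so no coordinates or sequences are given; it served for names (5895 current symbols, 2192 synonyms), and 6 symbols that read as dates are not named.

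Diets were compared with limma 3.58.1 (R 4.3.3, statmod 1.5.0; Python 3.11.15) with trend on log2(RPKM + 1), which understates the change of low genes, as deposited and after median-ratio rescaling; tests are two-sided with Benjamini-Hochberg adjustment at 0.05. The same fit recovered planted changes in simulated data with independent normal noise, no library-wide shift and no outlying library. These settings differ from the libraries here, so the simulation does not say how many changes were missed. The gene lists, members and tests were chosen with earlier results of these data known, so lists carry counts and medians and no test. Named genes are the 12 largest per direction at an unadjusted p under 0.05 with one sign on both scales and mean RPKM of at least 5, the 2 members of each list with the smallest p, fixed hormone, metabolic and yolk genes, and the 5 interaction genes with the smallest p; the text gives those needed. Outside this rule, Odc1, CG9510, Plc21C, CG6385, Sodh-1, pug, Eno, Gapdh2, Tpi, ATPCL, CG5508, v(2)k05816, Rfabg, LpR1, chico and the genes in the closing observations were named after their values were seen.

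Same-numbered HSD and ND libraries deviated together (correlations 0.255, 0.146, 0.649, 0.23 and 0.126, each above 0.1), although only numbers 3 and 4 were each other's best partner. The alternative fit with a replicate block pairs them by number; no label says what a number stands for.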

Additional observations from a re-analysis of the deposited data

Results flagged for a closer look

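In groups of 5 libraries, the gap of the farthest library to its neighbour divided by the group's range was set against 0.71. Of 214 groups of named genes and library measures, 32 passed. The values were RPKM without a log, and groups such as Yp1, Yp3 and the yolk share overlap, so the count has no chance rate to stand against. In 16 of the 32, HSD 5 stood above the other HSD libraries.

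HSD 5 was the high library for Cp19 (ratio 0.993), Def (0.979), Cp18 (0.937), CG9510 (0.885), tobi (0.866), bmm (0.864), Lsp2 (0.852), Yp3 (0.849), Yp1 (0.841), Sodh-1 (0.802), Cp15 (0.788), CG8249 (0.736), CG8709 (0.719) and Obp99a (0.713), for the share of reads on yolk genes (0.808) and for the summed RPKM of the fat body markers (0.829). Its tobi level was 332 RPKM against 73.4 to 108 RPKM in the other HSD libraries, and its yolk share was 13.7% against 5.86% to 7.36%. The fat body markers summed to 93953 RPKM there and to 42714 to 51467 RPKM in HSD 1 to 4.

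HSD 4 was the high library for snoRNA:Me28S-A2113 (0.869), CG14174 (0.861), snoRNA:Me28S-U2134a (0.859) and CG9444 (0.728), and the low one for AcCoAS (0.755), at 275 RPKM against 342 to 364 RPKM. Among ND libraries, ND 4 was the high one for Cp15 (0.897), Def (0.822), Cp19 (0.778) and Cp18 (0.749). ND 5 was the high one for Ef1gamma (0.914), Npc2g (0.81), CG6724 (0.773), CG17292 (0.719) and Odc1 (0.713), each a gene whose mean stood higher in HSD. ND 1 was the high one for Pepck (0.803), at 1706 RPKM against 472 to 715 RPKM, and ND 2 for ATPCL (0.746).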

How the results depend on the processing

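Genes with an adjusted p under 0.05 numbered 0 on the deposited scale and 0 after rescaling; among the alternatives run, the exceptions were 16 with libraries 1 to 3 and, with 1 library left out, a range of 0 to 19, both on the deposited scale. The 785 genes at an unadjusted p under 0.05 as deposited became 341 with median-ratio rescaling, 459 with quantile normalization (237 higher, 222 lower), 296 with limma-voom on the recovered reads (83 higher, 213 lower), 472 with the yolk genes left out of the read total (233 higher, 239 lower; chosen after seeing the data), 1263 without HSD 4, ND 4 and ND 5, 1500 with libraries 1 to 3 and 99 with libraries 4 and 5, and ranged over 472 to 1017 with 1 library left out. The 341 genes after rescaling became 583 with the replicate block, 559, 575 and 84 with those sets of libraries, and 195 to 467 with 1 library left out. The cause of these moves was not tested. The replicate block changed no adjusted call on either scale (1099 genes at an unadjusted p under 0.05 as deposited). The difference in log2 size factor stayed between 0.0722 and 0.305 with exact permutation p of 0.0952 or more, and the interaction gave 0 genes in each alternative run.

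Of 94 named genes, 94 kept their sign on the deposited scale with each library left out. In every alternative run counted, 85 kept it, where libraries were left out on the deposited scale only. The sign turned with libraries 4 and 5 for fit (0.11), Tpi (0.049), v(2)k05816 (-0.056), LpR1 (-0.081), Ilp6 (-0.31), InR (-0.12) and Hsp83 (-0.24), with libraries 1 to 3 for Thor (-0.11), and for foxo with rescaling (-0.057, with or without the replicate block), quantile normalization (-0.034) and limma-voom (-0.067). Rescaled fits with fewer libraries were not counted here. In those fits chico, for example, turned with libraries 1 to 3 (-0.054). Depth limits genes of low level most in ND 4, where 3 reads on a 1 kb gene are 0.536 RPKM.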

Other observations

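Other gene groups gave few differences. Respiratory chain genes stood higher in 18 of 21 as deposited and in 2 of 21 after rescaling (medians 0.08 and -0.15); the rescaled median was -0.34 in libraries 1 to 3 and 0.11 in libraries 4 and 5. The 26 antimicrobial peptide genes kept had rescaled medians of -1.18 in libraries 1 to 3 and 0.60 in libraries 4 and 5. Clock genes had 8 of 9 higher as deposited and 2 of 9 rescaled, and chaperones of the endoplasmic reticulum 17 of 19 and 9 of 19. For these lists the direction depends on the scale. Subunits of the vacuolar proton ATPase, which acidifies lysosomes, had 0 of 17 at an unadjusted p under 0.05 on either scale.

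The diets did not overlap for 1.91% of all genes as deposited and for 0.571% after rescaling. Of the 8224 genes, 20 did not overlap on both scales, and 11 of these stood higher and 9 lower in HSD. Beside those described, the higher ones held pex16, of peroxisome assembly, the ferredoxin gene Fdxh (Fdx1), CG14512 (Alg13), of protein glycosylation, U26 (Aasdh), CG3520, Rad51C, snoRNA:Or-aca1 and alphagamma-element:CR32865, and the lower ones CG13707, CG16790 and CG11619; these were chosen after their values were seen. Their rescaled log2 fold changes were between 0.26 and 1.74 for the higher and between -0.82 and -1.96 for the lower genes named here.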
